A study of Mus musculus with 24 samples.

Results

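The 10 enzymes that turn squalene into cholesterol were followed at the RNA level in mouse naive CD4 T cells that lacked Raptor or were wild type. The genes were Sqle, Lss, Cyp51, Msmo1, Nsdhl, Hsd17b7, Tm7sf2, Ebp, Sc5d and Dhcr7, taken as the enzymes of this stretch of the pathway, and they are 10 of 17097 genes measured. All 10 were found on the array, and no gene was removed for a low level. Where a gene had several probe sets, the one with the largest average across the 24 samples was used and the others served as a check.

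Cells were sorted from spleen and peripheral lymph nodes as CD4+CD62LhiCD44loCD25- cells. The Raptor-deficient cells came from CD4(cre)Raptor(fl/fl) mice, in which a Cre recombinase under the Cd4 promoter deletes floxed Raptor in T cells, and the wild-type cells came from mice labelled C57BL/6. The labels give neither the strain background nor the age of the Raptor-deficient mice. In each genotype cells were taken unstimulated (0 h) or stimulated through CD3 and CD28 with plate-bound antibodies, for 8 h or for 24 h, with 4 samples in each of 6 groups. The labels do not say whether the 4 samples of a group are from different mice, and the p-values therefore cover only sample-to-sample spread, which may be technical. RNA (20 ng per sample) was read on Affymetrix HT MG-430 PM arrays, and all levels below are log2 intensities. In bulk samples fewer cells of a type and less RNA per cell cannot be told apart.

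Cholesterol synthesis takes place in the endoplasmic reticulum. Squalene is made from mevalonate, is oxidised and closed into the ring system of lanosterol, and lanosterol then loses methyl groups and has its double bonds moved or reduced until cholesterol is formed. The transcription factor SREBP2, encoded by Srebf2, is released from the membrane when sterols are scarce and switches on the genes of the pathway, and dividing lymphocytes need the product for new membrane. Raptor, encoded by Rptor, is the defining subunit of mTORC1, a kinase complex known to promote SREBP activity.

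Promoter sequences are shown for the available members with the largest and the smallest differences between genotypes at 8 h, to set the ends of that range side by side. They are the 250 bases before the transcription start in RefSeq (GRCm38.p6), 5′ to 3′ on the strand of the gene, and Sqle was named only, without a sequence. Capitals mark CCAAT, the box bound by nuclear factor Y, and GGGCGG, the GC box bound by Sp1, each searched on both strands as ATTGG and CCGCCC.
Cyp51, chr5:4104698-4104947, minus strand: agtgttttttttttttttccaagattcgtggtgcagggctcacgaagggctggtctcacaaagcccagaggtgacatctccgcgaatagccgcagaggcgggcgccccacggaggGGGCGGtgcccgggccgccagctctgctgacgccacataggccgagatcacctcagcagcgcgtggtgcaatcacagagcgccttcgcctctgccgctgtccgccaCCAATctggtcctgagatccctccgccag
Msmo1, chr8:64733579-64733828, minus strand: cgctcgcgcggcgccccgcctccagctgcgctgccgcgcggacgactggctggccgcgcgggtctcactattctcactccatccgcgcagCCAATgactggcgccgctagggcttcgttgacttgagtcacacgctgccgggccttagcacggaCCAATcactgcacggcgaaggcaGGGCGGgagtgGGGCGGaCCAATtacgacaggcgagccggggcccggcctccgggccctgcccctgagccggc
Tm7sf2, chr19:6067851-6068100, minus strand: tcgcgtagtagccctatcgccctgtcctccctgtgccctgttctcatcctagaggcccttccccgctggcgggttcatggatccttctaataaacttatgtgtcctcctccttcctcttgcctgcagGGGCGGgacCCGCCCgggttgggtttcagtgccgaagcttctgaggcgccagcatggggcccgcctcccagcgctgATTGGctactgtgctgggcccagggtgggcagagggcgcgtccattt

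Matches were found for 9 of the 10 members in the RefSeq promoter table, with 11 windows because Dhcr7 has several starts. CCAAT was present in at least 1 window of all 9 genes and in 9 of 11 windows, against 33.85% of all 32851 windows. GGGCGG was present in a window of all 9 genes and in 10 of 11 windows, against 32.742% of all windows. Both stood together in 9 of 11 member windows and in 11.013% of all windows. A form of the sterol regulatory element, TCACNCCAC, was in 0 of 11 member windows and in 1.053% of all windows. With so low a share, its absence from 11 windows says little, and other forms of the element were not searched. Msmo1 carries 3 CCAAT boxes, while Cyp51 and Tm7sf2 carry 1 each. A match describes the letters in the window and not a bound site.

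Rptor, the targeted gene, had 5.92, 7.37, 6.55 and 6.79 in unstimulated Raptor-deficient samples, against 7.04, 7.49, 7.19 and 7.39 in unstimulated wild-type samples, and these groups overlapped (adjusted p = 0.075, limma). It was 2.02-fold lower at 8 h (adjusted p = 0.000292) and 1.56-fold lower at 24 h (adjusted p = 0.0109). The files do not place its probes against the deleted part. Markers of CD4 T cells were measured for 9 of 10 listed genes, and all 9 reached the median of all gene values, 5.51, in every sample. Replicates correlated with r of 0.978 to 0.996 across genes. Unstimulated Raptor-deficient replicates 1, 2 and 3 stood apart, with residual SDs of 0.280, 0.222 and 0.206, against 0.119 to 0.172 in the other samples. In both 24 h groups replicate 1 contained liver transcripts. The summed linear intensity of 7 measured liver genes was 1421 in the Raptor-deficient and 1266 in the wild-type sample, against 224 to 246 in the other 24 h samples.

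Stimulation for 8 h raised most of these enzymes in wild-type cells. Of the 10 genes, 8 rose and 1 fell, where 18.9% of all genes were called higher and 20.8% lower (limma, adjusted p under 0.05 over all genes). The median change of the 10 genes was 1.12 on the log2 scale, against -0.03 for all genes. Sqle, which oxidises squalene and is a slow step of the pathway, rose the most, with 7.53, 7.72, 7.74 and 7.45 at 8 h against 4.23, 3.74, 3.70 and 4.11 unstimulated. That is 12.7-fold (log2 3.66, adjusted p = 4.14e-17), and the unstimulated level lay under the median of all values, so the fold is that of the measured intensities only. Cyp51, which removes a methyl group from lanosterol, rose 6.92-fold (adjusted p = 3.51e-17) and Msmo1, which oxidises another methyl group, 3.97-fold (adjusted p = 1.21e-10).

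The remaining wild-type changes at 8 h were smaller. Hsd17b7, the ketone reductase of the demethylation steps, rose 2.93-fold (adjusted p = 3.17e-12), and Lss, which closes the rings to form lanosterol, 2.59-fold (adjusted p = 2.1e-07), from a level under the median of all values. Sc5d, which inserts a double bond late in the pathway, rose 1.82-fold and Nsdhl, a dehydrogenase of the demethylation steps, 1.72-fold (adjusted p = 4.2e-07 and 6.69e-05). Dhcr7, the reductase of the last step, rose 1.24-fold (adjusted p = 0.00682). Ebp, which moves a double bond of the ring, had a log2 change of 0.12 (adjusted p = 0.487). Tm7sf2, a sterol reductase whose reaction the lamin B receptor Lbr also carries out, fell 1.52-fold (adjusted p = 0.000206).

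**Figure D1:**
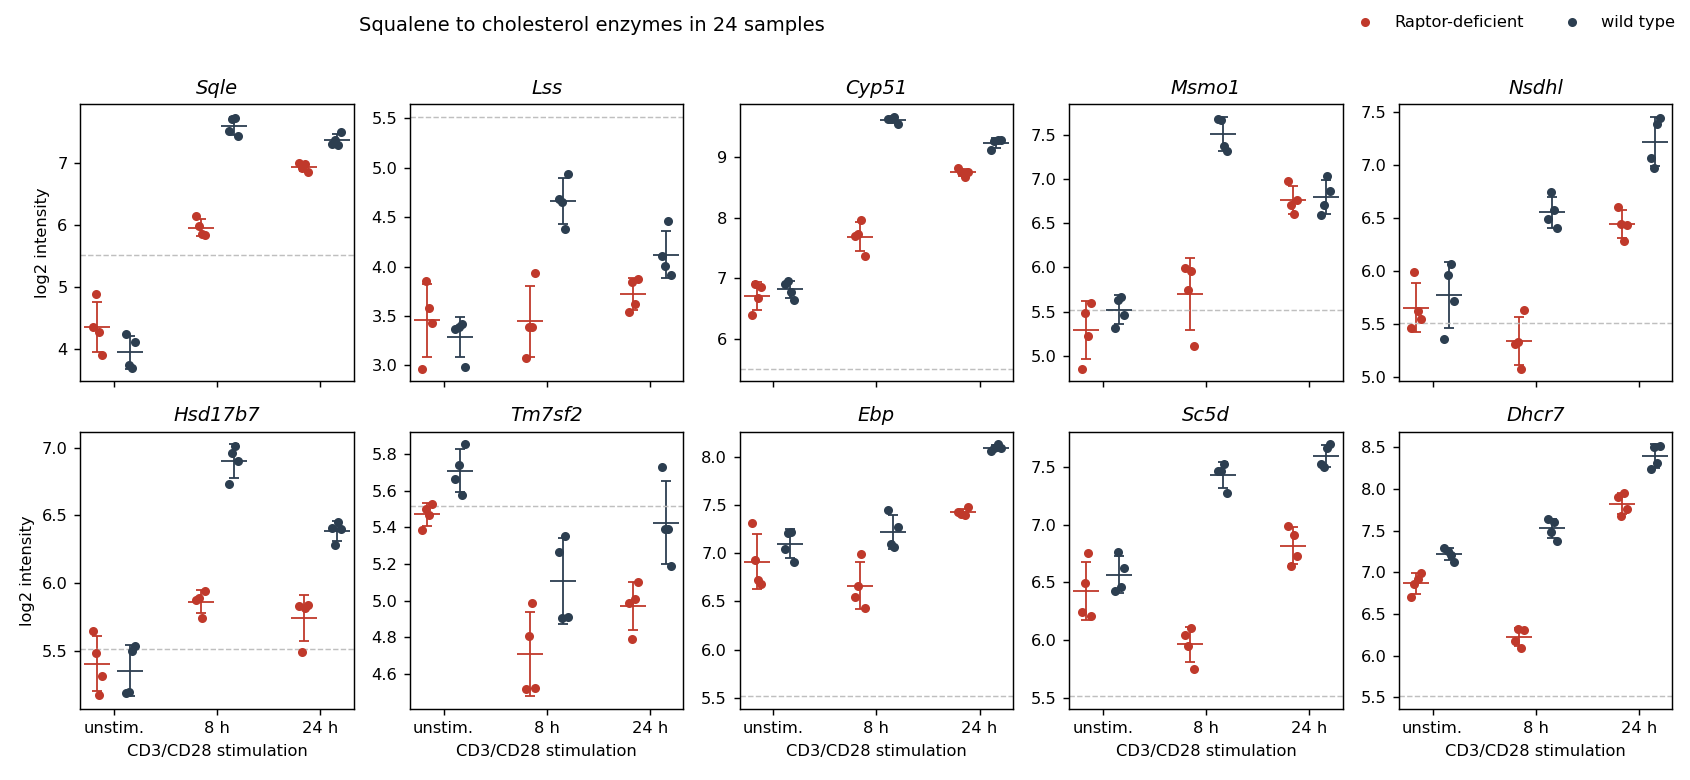
Log2 intensity of each of the 10 enzymes (vertical axes) in every sample by time after stimulation, with 4 points per group, a bar at the mean with its SD, and a dashed line at the median of all gene values (5.51). At 8 h the Raptor-deficient samples lie below all wild-type samples for 9 enzymes, and for Tm7sf2 the groups overlap.

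In Raptor-deficient cells 3 of the 10 genes rose and 3 fell after 8 h, where 16% of all genes were called higher and 16.8% lower, and the median change was -0.13. Sqle had 6.15, 5.99, 5.86 and 5.85 at 8 h, against 4.35, 4.88, 4.27 and 3.90 unstimulated, a rise of 3.06-fold (adjusted p = 9.23e-10). Cyp51 rose 1.97-fold (adjusted p = 4.51e-08) and Hsd17b7 1.37-fold (adjusted p = 0.00111). Tm7sf2 fell 1.70-fold (adjusted p = 1.3e-05), Dhcr7 1.56-fold (adjusted p = 2.13e-06) and Sc5d 1.38-fold (adjusted p = 0.00177). The changes of Lss (-0.01), Msmo1 (0.41), Nsdhl (-0.32) and Ebp (-0.25) did not pass, with adjusted p = 0.977, 0.0588, 0.101 and 0.13.

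All 6 of these calls held when any single sample was left out, while further genes passed without some samples. Without Raptor-deficient 8 h replicate 4, Msmo1 rose by 0.61 (adjusted p = 0.00216) and Nsdhl fell by 0.41 (adjusted p = 0.0389). Msmo1 also passed without unstimulated Raptor-deficient replicate 2 or 4 (adjusted p = 0.0421 and 0.0251), and Ebp fell by 0.36 without Raptor-deficient 8 h replicate 3 (adjusted p = 0.0244). Without unstimulated Raptor-deficient replicates 2 and 3 together, the change of Sc5d was -0.27 (adjusted p = 0.0925). The counts of genes that rose and fell were 3 and 3 without replicate 1 of that group.

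Compared directly at 8 h, all 10 enzymes were lower in Raptor-deficient than in wild-type cells, where 8.77% of all genes were called lower and 4.14% higher. The median difference was -1.26, against 0.01 for all genes. In 9 enzymes every Raptor-deficient sample lay below every wild-type sample, a separation seen in 12.5% of all genes. At the first steps, Sqle had 6.15, 5.99, 5.86 and 5.85 in Raptor-deficient cells, against 7.53, 7.72, 7.74 and 7.45 in wild-type cells. It was 3.13-fold lower (log2 -1.65, SE 0.14, adjusted p = 2.16e-08). Lss had 3.08, 3.39, 3.39 and 3.94 in Raptor-deficient cells, against 4.68, 4.66, 4.38 and 4.94 in wild-type cells, and was 2.32-fold lower (log2 -1.22, SE 0.17, adjusted p = 2.2e-05). Both groups of Lss lie under the median of all values, as do those of Tm7sf2 at 8 h, and no measure of detection was available for these dim probe sets.

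The enzymes that strip methyl groups from lanosterol included the widest gaps of the 10. Cyp51 had 7.69, 7.74, 7.95 and 7.37 in Raptor-deficient cells, against 9.62, 9.62, 9.65 and 9.54 in wild-type cells. It was 3.79-fold lower (log2 -1.92, SE 0.11, 95% interval -2.14 to -1.70, adjusted p = 1.01e-11). Msmo1, next in the order of size, had 5.99, 5.74, 5.96 and 5.11 in Raptor-deficient cells, against 7.68, 7.67, 7.38 and 7.32 in wild-type cells, and was 3.51-fold lower (log2 -1.81, SE 0.16, adjusted p = 3.39e-08). Nsdhl had 5.32, 5.34, 5.08 and 5.63 in Raptor-deficient cells, against 6.49, 6.75, 6.58 and 6.41 in wild-type cells (2.32-fold lower, adjusted p = 1.91e-06). Hsd17b7 had 5.88, 5.89, 5.74 and 5.94 in Raptor-deficient cells, against 6.73, 6.96, 7.01 and 6.90 in wild-type cells (2.05-fold lower, adjusted p = 1.92e-07). All 4 of these enzymes separated the genotypes sample by sample.

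**Figure D2:**
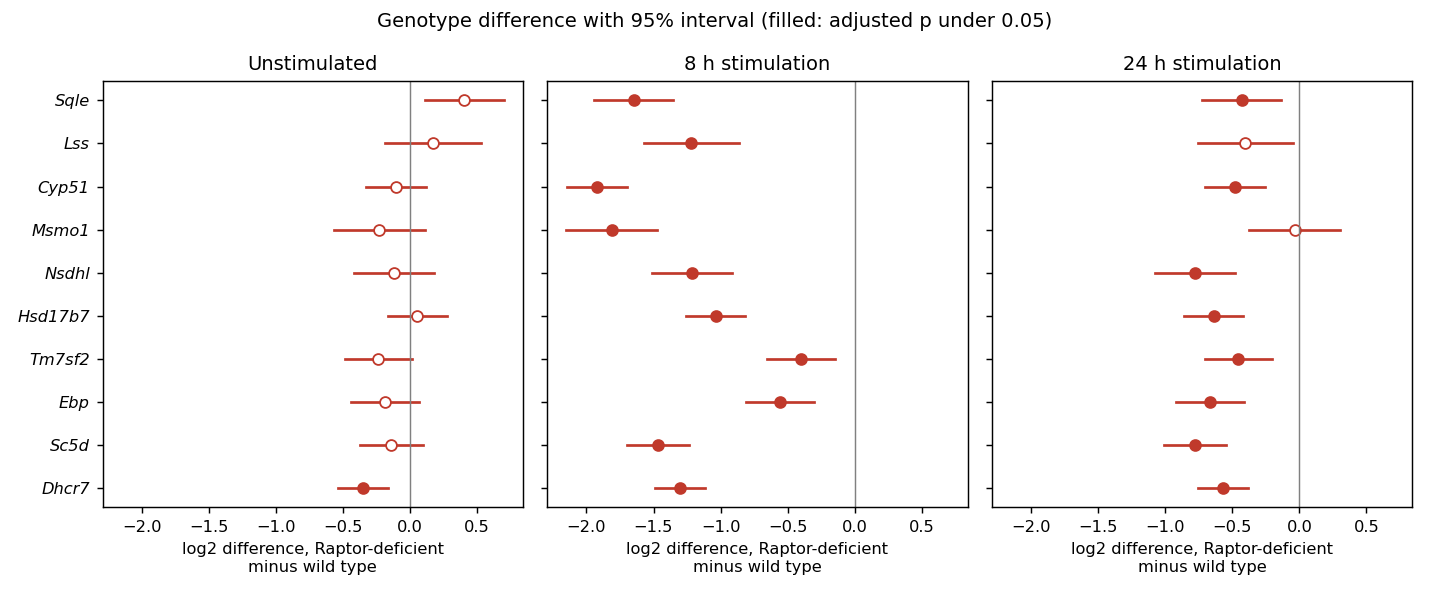
Difference in log2 intensity, Raptor-deficient minus wild type, for each enzyme at 0 h, 8 h and 24 h, with the 95% interval from the limma fit and filled points where adjusted p is under 0.05. At 8 h the differences run from -1.92 for Cyp51 to -0.40 for Tm7sf2, and at 24 h from -0.78 to -0.03.

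The late ring enzymes and the reductase Tm7sf2 spanned the range from wide to narrow. Sc5d had 6.05, 5.95, 6.10 and 5.75 in Raptor-deficient cells, against 7.46, 7.46, 7.53 and 7.27 in wild-type cells (2.77-fold lower, adjusted p = 2.85e-09). Dhcr7 had 6.18, 6.33, 6.10 and 6.30 in Raptor-deficient cells, against 7.64, 7.49, 7.61 and 7.38 in wild-type cells (2.46-fold lower, adjusted p = 4.3e-10). Neither pair of groups overlapped. Ebp had 6.55, 6.67, 7.00 and 6.43 in Raptor-deficient cells, against 7.45, 7.10, 7.06 and 7.27 in wild-type cells (1.47-fold lower, adjusted p = 0.00235). Tm7sf2 had 4.52, 4.81, 4.99 and 4.52 in Raptor-deficient cells, against 5.27, 4.90, 5.35 and 4.91 in wild-type cells, the only enzyme of the 10 whose groups overlapped. It was 1.32-fold lower (adjusted p = 0.0285), a call lost without Raptor-deficient 8 h replicate 1 or 4 (adjusted p = 0.106 and 0.113) or wild-type 8 h replicate 1 or 3 (adjusted p = 0.0882 and 0.128).

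Summed markers of several cell types differed in this comparison, while most single markers were not called. The summed linear intensity of the 9 CD4 T cell markers was 8085 to 8727 in Raptor-deficient and 9795 to 10806 in wild-type cells at 8 h. For 6 measured B cell markers it was 160 to 233 in Raptor-deficient and 123 to 147 in wild-type cells, with 1 to 3 of 6 and 0 of 6 markers reaching the gene median of 5.51. The 2 CD8 T cell markers summed to 98.8 to 129.8 in Raptor-deficient and 140.9 to 164.5 in wild-type cells, without overlap. For 8 myeloid markers it was 579 to 645 in Raptor-deficient and 521 to 569 in wild-type cells. The 5 NK cell markers summed to 67.4 to 83.3 in Raptor-deficient and 67.8 to 88.9 in wild-type cells, with overlap. Of single markers, 3 of 9 for CD4 T cells were called lower and 2 of 8 for myeloid cells higher, beside 8.77% and 4.14% of all genes. For B cells 0 of 6 were called, for CD8 T cells 0 of 2 and for NK cells 0 of 5. The part of these markers in the result was not tested.

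The change from 0 h to 8 h itself differed between genotypes for 8 of the 10 enzymes, each with a lower value in Raptor-deficient cells, where 4.36% of all genes were called in that direction and 1.94% in the other. The largest difference of the responses was -2.05 for Sqle (SE 0.20, adjusted p = 1.06e-06), followed by -1.81 for Cyp51 (adjusted p = 1.54e-07). The values for Msmo1, Lss and Sc5d were -1.58, -1.39 and -1.33, and those for Nsdhl, Hsd17b7 and Dhcr7 were -1.10, -1.09 and -0.95. Sc5d and Dhcr7 went in opposite directions, with falls of 1.38-fold and 1.56-fold in Raptor-deficient cells and rises of 1.82-fold and 1.24-fold in wild-type cells. For Sc5d this held for its brightest probe set. Its other probe sets changed by -0.21 and -0.51 from 0 h to 8 h in wild-type cells (adjusted p = 0.498 and 0.116). Their response differences were -0.05 and -0.46 (adjusted p = 0.961 and 0.552). Ebp (-0.37, adjusted p = 0.232) and Tm7sf2 (-0.16, adjusted p = 0.669) did not pass. The unstimulated Raptor-deficient samples enter this contrast as well, and the count was 8 without replicate 1 of that group and without its replicates 2 and 3.

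**Figure D3:**
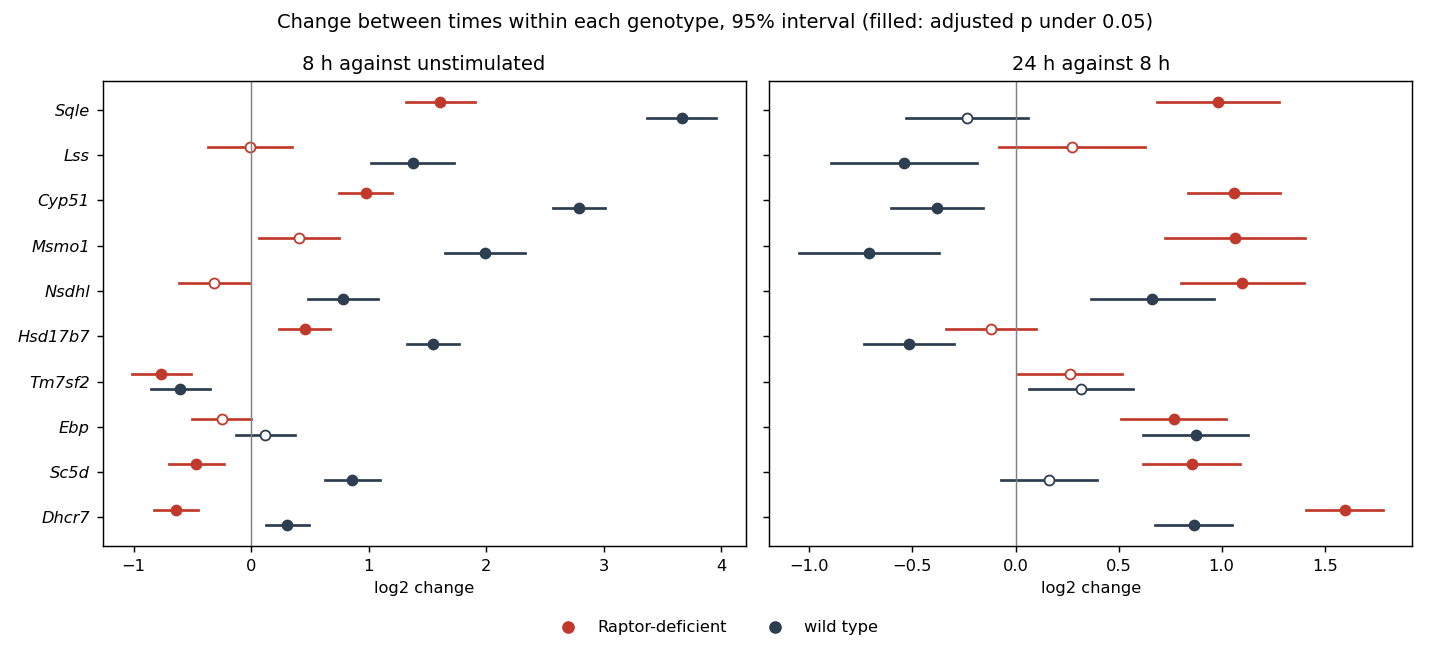
Change in log2 intensity from 0 h to 8 h and from 8 h to 24 h for each enzyme, with its 95% interval, in Raptor-deficient and wild-type cells. From 0 h to 8 h Sqle changes by 1.61 in Raptor-deficient and 3.66 in wild-type cells, and from 8 h to 24 h Dhcr7 changes by 1.60 in Raptor-deficient and 0.87 in wild-type cells.

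Before stimulation 1 of the 10 enzymes, Dhcr7, was called lower in Raptor-deficient cells and 0 higher, where 1.24% of all genes were called lower and 0.702% higher, and the median difference was -0.13 against -0.01 for all genes. Dhcr7 had 6.70, 6.87, 6.92 and 6.99 in Raptor-deficient cells, against 7.29, 7.26, 7.21 and 7.12 in wild-type cells. It was 1.27-fold lower (log2 -0.35, SE 0.09, adjusted p = 0.0414). The groups did not overlap, as for 3.47% of all genes, but the call was lost without unstimulated Raptor-deficient replicate 1 (adjusted p = 0.126) or 2 (0.0696) or unstimulated wild-type replicate 1 (0.125), 2 (0.105) or 3 (0.0911). It was also lost without Raptor-deficient 8 h replicate 1 (0.0501), wild-type 8 h replicate 2 (0.051) or Raptor-deficient 24 h replicate 4 (0.0518), which enter through the shared spread. Centring the arrays on the median (0.0662), a trend and robust prior (0.0523) and array weights (0.203) ended it too. So did a fit of the unstimulated groups alone (0.265) and the replicate number as a block (0.0589). In the fit of all probe sets the same probe set had an adjusted p of 0.0507. Tm7sf2 did not overlap either, at -0.24 (adjusted p = 0.402).

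The highest unstimulated Raptor-deficient value of Sqle was 4.88, in replicate 2. Sqle differed by 0.40 (adjusted p = 0.166), and by 0.55 without unstimulated Raptor-deficient replicate 4, where it passed (adjusted p = 0.0292). The other 7 enzymes lay between -0.23 for Msmo1 and 0.17 for Lss, with adjusted p of 0.554 or more. A dimmer probe set of Sc5d did pass in the check of other probe sets, at -0.85 (adjusted p = 0.0415). In this comparison the 5 NK cell markers summed to 98.0 to 110 in Raptor-deficient and 176 to 215 in wild-type cells. Of these 5 markers 1 was called lower and 0 higher. Their log2 differences ran from -1.65 to 0.45 with a median of -0.01. Of 9 CD4 T cell markers 3 were called lower, and of 8 myeloid markers 1 was called higher. Of all genes 1.24% were called lower and 0.702% higher. For B cells 0 of 6 markers were called and for CD8 T cells 0 of 2. The part of all these markers was not tested.

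At 24 h the enzymes were again lower in Raptor-deficient cells, by less than at 8 h for several of them. Of the 10, 8 were called lower and 0 higher, where 13.1% of all genes were called lower and 8.35% higher, and the median difference was -0.53 against 0.01 for all genes. In 9 enzymes the groups did not overlap, as in 16.5% of all genes. Sc5d had 6.99, 6.64, 6.91 and 6.73 in Raptor-deficient cells, against 7.53, 7.50, 7.66 and 7.69 in wild-type cells (1.72-fold lower, adjusted p = 9.09e-06). Nsdhl had 6.60, 6.45, 6.28 and 6.43 in Raptor-deficient cells, against 7.07, 6.98, 7.39 and 7.45 in wild-type cells (1.72-fold lower, adjusted p = 0.000226). These were the widest gaps of the 10 at 24 h.

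Ebp was 1.59-fold lower at 24 h (7.43 ± 0.04 in Raptor-deficient and 8.09 ± 0.03 in wild-type cells, SD, n = 4 each, adjusted p = 0.000208, limma). Hsd17b7 was 1.56-fold, Dhcr7 1.48-fold and Cyp51 1.40-fold lower, with adjusted p = 5.59e-05, 3.34e-05 and 0.00168. Msmo1, among the widest gaps at 8 h, had 6.98, 6.71, 6.60 and 6.77 in Raptor-deficient cells, against 6.59, 6.71, 7.03 and 6.87 in wild-type cells. Its groups overlapped, and the difference was -0.03 with a 95% interval from -0.37 to 0.31 (adjusted p = 0.926). Lss differed by -0.40 without overlap and did not pass (adjusted p = 0.107).

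The calls of Tm7sf2 and Sqle at 24 h were less stable. Tm7sf2 was 1.37-fold lower (adjusted p = 0.00766) and Sqle 1.35-fold lower (adjusted p = 0.0328). Without replicate 1 of both 24 h groups, the samples with liver transcripts, adjusted p was 0.0739 for Tm7sf2 and 0.0648 for Sqle, and 6 of the 10 enzymes were called lower. Sqle also lost its call without Raptor-deficient 24 h replicate 1 (adjusted p = 0.0505), 2 (0.0698) or 4 (0.0857), or wild-type 24 h replicate 2 (0.0625) or 4 (0.0987). The 6 B cell markers summed to 194 to 323 in Raptor-deficient and 127 to 151 in wild-type cells at 24 h, with 2 to 3 and 0 to 1 of them reaching the gene median of 5.51. Of single markers, 2 of 6 for B cells and 2 of 8 for myeloid cells were called higher, beside 8.35% of all genes. For CD4 T cells 1 of 9 was called lower, beside 13.1% of all genes. For CD8 T cells 0 of 2 were called and for NK cells 0 of 5. The part of these markers was not tested.

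Between 8 h and 24 h in Raptor-deficient cells, 7 of the 10 enzymes rose and 0 fell, where 15.2% of all genes were called higher and 7.81% lower. Dhcr7 rose the most, 3.03-fold (log2 1.60, adjusted p = 1.2e-12), and Nsdhl, Cyp51, Msmo1, Sqle, Sc5d and Ebp rose by 0.77 to 1.10 on the log2 scale. In the fit of all probe sets, 1 of 7 other probe sets passed, that of Cyp51 at 0.97 (adjusted p = 4.32e-05). The other of Cyp51 gave -0.08, that of Msmo1 0.02 and those of Sc5d 0.28 and -0.02. Their adjusted p were 0.741, 0.949, 0.419 and 0.973, so for Msmo1 and Sc5d the rise rests on the brightest probe set. In wild-type cells 3 enzymes rose and 4 fell over the same interval, where 17.4% of all genes were called higher and 11% lower. Dhcr7 and Ebp each rose by 0.87 and Nsdhl by 0.66, while Msmo1 fell by 0.71, Lss by 0.54, Hsd17b7 by 0.52 and Cyp51 by 0.38. The fall of Lss was not called without wild-type 8 h replicate 4 (adjusted p = 0.0774) or wild-type 24 h replicate 2 (0.0544) or 4 (0.0683). Tm7sf2 had log2 differences between 24 h and 8 h of 0.26 in Raptor-deficient and 0.32 in wild-type cells (adjusted p = 0.136 and 0.0539). The Raptor-deficient value passed without Raptor-deficient 8 h replicate 3 (adjusted p = 0.0445), and the wild-type value without that sample (0.0422), wild-type 8 h replicate 1 (0.0389) or 3 (0.0214), or wild-type 24 h replicate 4 (0.0232).

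T cell markers moved over the same interval. In Raptor-deficient cells 5 of 9 CD4 and 2 of 2 CD8 T cell markers rose between 8 h and 24 h, where 15.2% of all genes were called higher. In wild-type cells 3 of 9 CD4 and 1 of 2 CD8 T cell markers rose, where 17.4% of all genes were called higher. The summed linear intensities in Raptor-deficient cells were 11788 to 12648 at 24 h against 8085 to 8727 at 8 h for CD4 markers. For CD8 markers they were 157.9 to 203.5 at 24 h against 98.8 to 129.8 at 8 h. In wild-type cells the CD4 markers summed to 11755 to 12760 at 24 h against 9795 to 10806 at 8 h, and the CD8 markers to 168.8 to 221.6 at 24 h against 140.9 to 164.5 at 8 h. Their part in the change was not tested.

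The difference between these changes of the enzymes passed the test for 5 enzymes, all with a more positive change in Raptor-deficient cells, where 1.33% of all genes were called so and 3.2% the other way. The difference was 1.78 for Msmo1 (adjusted p = 5.76e-06), 1.44 for Cyp51 (adjusted p = 1.71e-07) and 1.22 for Sqle (adjusted p = 0.000202). It was 0.73 for Dhcr7 (adjusted p = 0.000383) and 0.69 for Sc5d (adjusted p = 0.00847). The value for Sc5d was 0.61 without replicate 1 of both 24 h groups (adjusted p = 0.0516), and 0.51 with its probe sets averaged (0.0605). Its other probe sets gave 0.58 and 0.26 (adjusted p = 0.441 and 0.863). Nsdhl, Hsd17b7, Tm7sf2 and Ebp did not pass, with values of 0.44, 0.40, -0.05 and -0.11, and Lss had 0.82 (adjusted p = 0.0555). Hsd17b7 passed with its probe sets averaged (0.60, adjusted p = 0.001). With array weights Hsd17b7 (adjusted p = 0.0342) and Lss (0.0128) passed. Lss passed without Raptor-deficient 8 h replicate 4 (adjusted p = 0.0112), unstimulated Raptor-deficient replicate 1 (0.024) or 2 (0.0375), wild-type 8 h replicate 3 (0.0356) or wild-type 24 h replicate 3 (0.0295).

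Over the whole interval from 0 h to 24 h, 8 enzymes rose and 1 fell in Raptor-deficient cells, where 21.6% of all genes were called higher and 17.5% lower. In wild-type cells 9 rose and 0 fell, where 25.4% of all genes were called higher and 24.3% lower. The enzyme that fell in Raptor-deficient cells was Tm7sf2 (-0.50, adjusted p = 0.00146). Hsd17b7 rose by 0.34 in those cells (adjusted p = 0.0118), and its adjusted p was 0.0608 without unstimulated Raptor-deficient replicate 3. In wild-type cells the value for Tm7sf2 was -0.28, which did not pass (adjusted p = 0.0568). It passed without wild-type 24 h replicate 1 (adjusted p = 0.0112), or without replicate 3 of unstimulated wild-type (0.0458), wild-type 8 h (0.0494) or Raptor-deficient 8 h cells (0.0452). Sqle rose 6.04-fold in Raptor-deficient and 10.8-fold in wild-type cells. The 24 h response was smaller in Raptor-deficient cells for 4 enzymes, where 8.01% of all genes were called so and 5.26% the other way. These were Sqle (-0.83, adjusted p = 0.0062), Hsd17b7 (-0.69, adjusted p = 0.00221), Nsdhl (-0.66, adjusted p = 0.0319) and Sc5d (-0.64, adjusted p = 0.00767). Nsdhl lost this call when any of 8 single samples was left out, with adjusted p of 0.0509 to 0.0832, and both Nsdhl (0.123) and Sc5d (0.053) lost it without unstimulated Raptor-deficient replicates 2 and 3. Without unstimulated Raptor-deficient replicate 1 the count was 6, with Lss (adjusted p = 0.0313) and Cyp51 (adjusted p = 0.0228) added. Ebp had -0.48 (adjusted p = 0.07) and passed without unstimulated Raptor-deficient replicate 3 (0.0383) or 4 (0.0376) or Raptor-deficient 8 h replicate 3 (0.0471).

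The order of the 6 group means set the enzymes apart from each other. Cyp51, Sqle and Msmo1 were highest in wild-type cells at 8 h, then in wild-type cells at 24 h, Raptor-deficient cells at 24 h and Raptor-deficient cells at 8 h. For Cyp51 the neighbours in that order did not overlap except the unstimulated groups, and for Sqle the wild-type groups at 8 h and 24 h overlapped too. Dhcr7 and Ebp were highest in wild-type cells at 24 h, and Raptor-deficient cells at 24 h came before wild-type cells at 8 h. Dhcr7 had no overlapping neighbours, and its lowest group was Raptor-deficient cells at 8 h, below both unstimulated groups. Nsdhl, Sc5d, Ebp and Tm7sf2 also had their lowest mean in that group. Tm7sf2 was highest in unstimulated cells of both genotypes.

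Other probe sets existed for 4 enzymes, 7 in all, and were tested in a separate fit of all 45141 probe sets. The shares called over all probe sets of that fit are not given here, so the counts of the 7 serve only as a check. In unstimulated cells all 7 had a lower mean in Raptor-deficient than in wild-type cells, and 1 passed, which was that of Sc5d at -0.85 (adjusted p = 0.0415). At 8 h all 7 had a lower mean in Raptor-deficient than in wild-type cells, and 5 of them passed. For the difference in the 8 h response 4 of the 7 passed, each with a lower value in Raptor-deficient cells. At 24 h 4 of the 7 had a lower mean in Raptor-deficient cells and 2 passed, and 0 of 7 passed for the difference in the 24 h response. The 8 h differences were -1.95 and -0.87 for Cyp51, for Hsd17b7 -1.55 and -0.22 (adjusted p = 0.205 for the smaller), for Msmo1 -0.58, and for Sc5d -0.90 and -0.59 (adjusted p = 0.154 for the smaller). At 24 h those of Cyp51 gave -0.63 and 0.17, those of Hsd17b7 -0.57 and 0.20, that of Msmo1 0.06 and those of Sc5d -0.32 each. The rise from 0 h to 24 h in wild-type cells was not seen in every probe set either. The log2 difference was 0.0084 for 1 probe set of Cyp51, 0.03 for that of Msmo1 and -0.21 for 1 of Hsd17b7 (adjusted p = 0.966, 0.855 and 0.0988). Sc5d's other probe sets, with means of 4.99 and 4.37, also did not follow it. Their values were -0.51 and -0.79 between 0 h and 24 h in wild-type cells, and the larger passed (adjusted p = 0.00962), so the rise of Sc5d rests on its brightest probe set. Over this interval in Raptor-deficient cells, 2 of the 7 passed as higher and 1 as lower. The same probe sets of Cyp51, Msmo1 and Hsd17b7 gave 0.30, 0.09 and 0.01 there (adjusted p = 0.0887, 0.588 and 0.954). Those of Sc5d gave 0.02 (adjusted p = 0.954) and -0.99, which passed as lower (adjusted p = 0.00223).

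The enzymes upstream, from acetate units to squalene, were measured for 7 of 10 listed genes. At 8 h 5 of the 7 were lower and 1 higher in Raptor-deficient cells, where 8.77% of all genes were called lower and 4.14% higher. Idi1, which isomerises the isoprene unit, was 3.54-fold lower, Fdps, which joins the units, 2.88-fold, and Fdft1, the squalene synthase, 2.17-fold, with adjusted p = 2.17e-08, 2.17e-08 and 9.8e-08. At 24 h 2 of the 7 were lower and 1 higher, where 13.1% of all genes were called lower and 8.35% higher, and at 0 h 0 of 7 were called. Of 6 measured enzymes that replace or assist the members, 2 were lower at 8 h. They were Cyb5b (-0.74, adjusted p = 0.00137) and Cyb5a (-0.58, adjusted p = 0.00132), forms of the electron carrier cytochrome b5. Lbr, which can take the place of Tm7sf2, differed by -0.12 (adjusted p = 0.647).

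Regulators and transport genes moved both ways at 8 h, with 3 of 10 measured genes lower and 3 higher in Raptor-deficient cells, beside 8.77% and 4.14% of all genes. Stard4, a sterol carrier, was 2.16-fold lower (adjusted p = 6.65e-09) and Insig1, the endoplasmic reticulum anchor of the SREBP complex, 2.39-fold lower (adjusted p = 1.25e-07). Abcg1, a sterol exporter, was 1.88-fold higher (adjusted p = 0.000307). Srebf2 was 1.45-fold lower at 8 h (adjusted p = 0.00107). At 24 h Srebf2 differed by 0.03 (adjusted p = 0.904), and in unstimulated cells by -0.19 (adjusted p = 0.478). At 24 h 3 of these 10 genes were lower and 2 higher, beside 13.1% and 8.35% of all genes, and Abcg1 then differed by -0.56 (adjusted p = 0.0136).

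**Figure D4:**
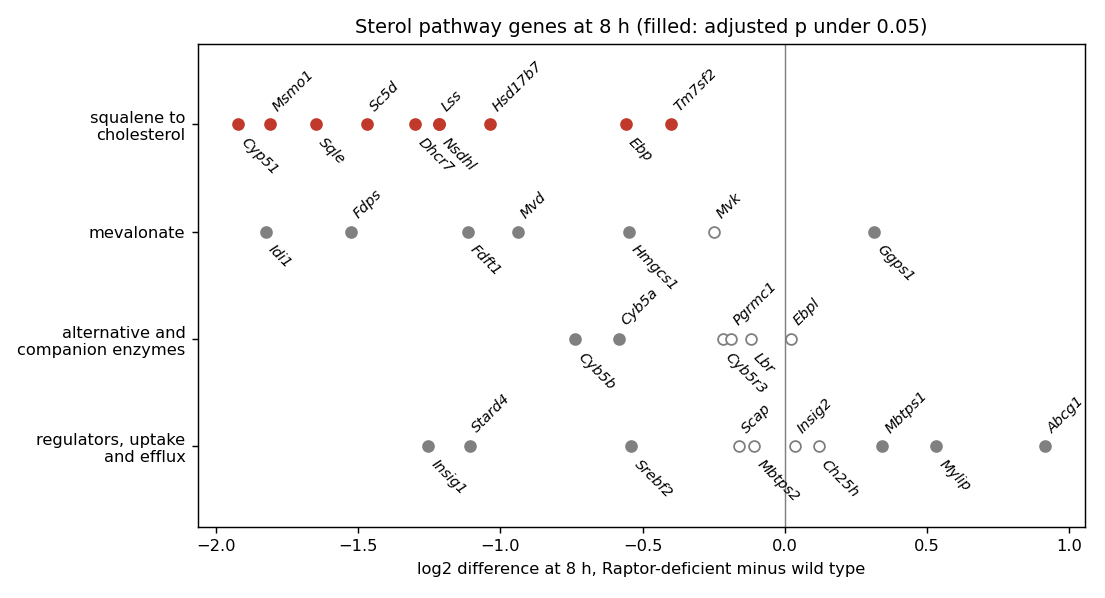
Difference in log2 intensity at 8 h, Raptor-deficient minus wild type, for the 10 enzymes and the measured genes of the companion lists, 1 point per gene, filled where adjusted p is under 0.05. All 10 enzymes lie below 0, from -1.92 to -0.40, while the regulators, uptake and efflux genes run from -1.25 for Insig1 to 0.91 for Abcg1.

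Among genes outside the list, those with the most similar profile were found by the root mean square distance between 6 centred group means and the average of the 10 enzymes. The nearest were Rpn1 (0.117), Fkbp2 (0.131), Psmd6 (0.132), Ripk3 (0.138) and Fdft1 (0.150), in log2 units. The enzymes themselves lay at 0.231 (Nsdhl) to 0.925 (Sqle) from their own average, each farther from it than these genes. At 8 h Rpn1, Fkbp2, Psmd6, Ripk3 and Fdft1 differed between genotypes by -0.97, -0.87, -0.86, -0.93 and -1.12. The 8 h groups were among the means used to choose these genes, so lower values there followed from the choice.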

How the data were processed

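RNA from 24 samples of sorted CD4 T cells was read on Affymetrix HT MG-430 PM arrays. The deposited log2 intensities were made by the authors with RMA and Partek 6.5, per the submitters' processing notes; the genome build is not given in the sources used here. Of 45141 probe sets, 28898 named 1 gene symbol, 551 several, and 15692 were not named; 17097 genes remained after the probe set with the highest mean was kept for each.

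With limma 3.58.1 in R 4.3.3, the means of the 6 groups were estimated together from the 24 samples, followed by empirical Bayes moderation. The 12 comparisons were tested two-sided, with Benjamini-Hochberg adjustment over all 17097 genes, and called at an adjusted p under 0.05. Other probe sets were tested in the same way in a separate fit, with adjustment over all 45141 probe sets. Fold changes are linear values of the log2 differences. On simulated data for the 8 h genotype comparison, recovery was 86.6% for 67 genes altered 1.5-fold, 98.5% for 67 altered 2-fold and 100% for 66 altered 4-fold, with 8 false calls. The number of arrays limits the precision.

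The members and companion lists were chosen with earlier results of these data known. All members are named, with Rptor, Srebf2 and Insig1, up to 3 called genes of smallest p per companion list, and the 5 genes most alike in profile. Lbr is named as the known alternative to Tm7sf2, chosen after its values were seen. Alternatives covered probe sets, dim genes, scaling, array weights, prior, samples in the fit, replicate blocks and each sample left out. Listed companion genes beyond those counted as measured were not analysed here.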

Additional observations from a re-analysis of the deposited data

Results flagged for a closer look

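In 3 of 60 groups of 4 samples, 1 sample lay far from the other 3 by Dixon's criterion, which chance meets in about 1 in 20 groups. Lss was 2.98 in unstimulated wild-type replicate 4, against 3.36 to 3.42 in the others. Cyp51 was 9.11 in wild-type 24 h replicate 1, one of the samples with liver transcripts, against 9.25 to 9.28. Hsd17b7 was 5.49 in Raptor-deficient 24 h replicate 2, against 5.82 to 5.83.

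The response to stimulation differed between genotypes in a direct test (limma) for several enzymes, given as Raptor-deficient minus wild type on the log2 scale. From 0 h to 8 h the values were -2.05 for Sqle, -1.39 for Lss, -1.81 for Cyp51, -1.58 for Msmo1, -1.10 for Nsdhl, -1.09 for Hsd17b7, -1.33 for Sc5d and -0.95 for Dhcr7. From 0 h to 24 h they were -0.83 for Sqle, -0.66 for Nsdhl, -0.69 for Hsd17b7 and -0.64 for Sc5d. From 8 h to 24 h they were 1.22 for Sqle, 1.44 for Cyp51, 1.78 for Msmo1, 0.69 for Sc5d and 0.73 for Dhcr7.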

How the results depend on the processing

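The 120 member results were recomputed under 35 alternatives, which gave 4188 values, since the filter on dim genes removed Lss. Direction and side of the threshold were kept in 4092, the call was lost in 48 and gained in 46, and 2 reversed. Both reversals were those of Sc5d when its probe sets were averaged. The change from 0 h to 24 h was then -0.19 in Raptor-deficient cells (adjusted p = 0.187) and -0.092 in wild-type cells (adjusted p = 0.530). With that averaging the count of enzymes with a smaller 24 h response in Raptor-deficient cells was 2 instead of 4, and Sc5d rose by 0.05 at 8 h in wild-type cells (adjusted p = 0.791). The unstimulated count of 1 became 0 with arrays centred on the median, array weights, a trend and robust prior, only the groups of the comparison in the fit, or without unstimulated Raptor-deficient replicates 2 and 3. Leaving out single samples gave counts of 0 to 2 in unstimulated cells, 9 to 10 at 8 h and 7 to 8 at 24 h, and of 8 to 8, 3 to 6 and 5 to 6 for the differences between genotypes in the 8 h response, the 24 h response and the change from 8 h to 24 h. Within wild-type cells they were 9 to 9, 9 to 10 and 6 to 8, and within Raptor-deficient cells 6 to 8, 8 to 9 and 7 to 8, for 8 h and 24 h against unstimulated and 24 h against 8 h.

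Replicates of the 2 genotypes share numbers, but the numbers were not taken as pairs in the main fit. Within each time, samples with the same number correlated in their deviations with r of 0.016 to 0.251. The correlation was positive in all 12 pairs and over 0.1 in 6 of them. Samples with different numbers were not compared in this way, so these values cannot decide whether the numbers mark matched samples. The 24 h samples with liver transcripts had the same number in both genotypes. With the replicate number as a block, Dhcr7 in unstimulated cells had an adjusted p of 0.0589 and the unstimulated count was 0, and the other counts were those of the fit without the block. No measure of detection was available, which limits what the folds of dim genes such as Lss and Tm7sf2 show.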
